A study of Mus musculus with 3 samples.

Results

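The 43 genes described here encode proteins of oxidative phosphorylation, the mitochondrial pathway that makes most of the ATP of a respiring cell. They were chosen by symbol, and 43 of the 27998 genes in the deposited table carried those symbols: 17 subunits of complex I, 4 of complex II, 4 of complex III, cytochrome c (Cycs), 9 of complex IV and 8 of ATP synthase. The cells were mouse nephron progenitors, the mesenchymal cells of the fetal kidney that renew themselves and give rise to nephrons. They came from Six2GFP+ embryos at E14.5 of gestation, in which green fluorescent protein follows the progenitor gene Six2. The fluorescence gate sets which cells were seen, and the sources used here do not describe the construct. Kidneys of several litters were mixed and divided over 3 tubes, and each tube gave 1 single-cell RNA library on the 10x Chromium system. All cells carried the same reporter, and no treatment or second genotype was compared, so the comparisons below are between cells of the same tube.

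Complex I takes electrons from NADH, and complex II takes them from succinate as part of the citric acid cycle. Both pass them to complex III, cytochrome c carries them on, and complex IV hands them to oxygen. ATP synthase uses the proton gradient that complexes I, III and IV build. A few core subunits are encoded by mitochondrial DNA, and the 43 members are all encoded in the nucleus, so the respiratory chain depends on both genomes. Nephron progenitors are known for strong glycolysis, and they move through a transition to epithelium when they are induced to form a nephron.

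Cells were grouped by raw counts of unique molecular identifiers (UMIs, 1 per captured transcript molecule) of 4 genes, separately in each library. The Lhx1 class (79 cells) had at least 1 UMI of Lhx1, a homeobox gene of the early nephron. The Wnt4 class (410 cells) had at least 1 UMI of Wnt4, the signal that starts the transition to epithelium, and none of Lhx1. The Epcam class (767 cells) had at least 1 UMI of the epithelial adhesion gene Epcam and none of Wnt4 and Lhx1. The Six2 class (5359 cells) had at least 1 UMI of Six2 and none of the other genes, and 1258 of the 7873 kept cells were in no class. Of the Lhx1 class, 48 cells had Six2 UMIs. Of these, 33 had none of Wnt4 and Epcam, so their Lhx1 UMIs alone kept them out of the Six2 class. The classes are cuts on few UMIs and not cell types: 632 of the 767 Epcam-class cells and 316 of the 410 Wnt4-class cells also had Six2.

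The classes were compared on lists of markers. The committing marker Pax8 was at 29.8 ± 5.10 CPM (UMIs of a gene scaled to 1e6 UMIs of its class and library, mean ± SD, n = 3 libraries) in the Six2 class, 29.2 ± 8.84 in the Epcam class, 63.7 ± 9.04 in the Wnt4 class and 169 ± 33.1 in the Lhx1 class. Cited1, a marker of uncommitted progenitors, was at 179.5 ± 26.3, 162 ± 12.0, 112 ± 38.8 and 76.9 ± 35.8 CPM in the same order. Other committing markers took other courses: Fgf8, a growth factor gene, was at 51.0 ± 8.49, 62.8 ± 12.7, 51.4 ± 10.8 and 89.0 ± 30.3 CPM, and Bmper at 27.1 ± 4.83, 21.8 ± 4.88, 52.6 ± 11.9 and 25.7 ± 4.22. Between the Epcam and Six2 classes edgeR called 4 of the 14 markers on the uncommitted and committing lists, which include the class genes Six2 and Wnt4. Over all tested genes it called 9.08% in either direction. Crym (log2 change -0.23, adjusted p = 7.43e-05) and Bmper (-0.31, adjusted p = 0.0299) were lower, and Fgf8 (0.30, adjusted p = 0.00298) was higher. The other was Six2 itself (-0.19). The class rule asks for Six2 in every Six2-class cell and not in the Epcam class, so this call is no finding about the cells. The Lhx1 class also held UMIs of Calb1, a marker of the ureteric epithelium (90.97 ± 88.37 CPM against 0.143 ± 0.0978 in the Six2 class), though in 2 of 3 libraries, so it is not a pure early nephron group. Calb1 was at 5.99 ± 9.57 CPM in the Epcam class and 0.819 ± 0.458 in the Wnt4 class. Libraries 1, 2 and 3 had 3016, 2756 and 2101 kept cells with 50641865, 35193842 and 35406343 UMIs. Summed UMIs per class and library ran from 373985 (Lhx1 class, library 2) to 33094420 (Six2 class, library 1). There were 22 barcodes shared between libraries. Library 2 stood apart in composition, with a median of 13.2% of UMIs from ribosomal protein genes in its Six2 class against 24.9% and 21.4% in libraries 1 and 3.

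Together the 43 members made up 1.700%, 1.111% and 1.498% of all UMIs in the Six2 class of libraries 1, 2 and 3. In the Epcam class they made up 1.809%, 1.208% and 1.610%, in the Wnt4 class 1.841%, 1.190% and 1.634%, and in the Lhx1 class 1.901%, 1.187% and 1.679%. Library 2 was lowest in every class, and its highest value lay below the lowest value of the other libraries. Within a library the share was higher than in the Six2 class in 3 of 3 libraries for each class: by a ratio of 1.075 ± 0.0115 (SD, n = 3) for the Epcam class, 1.082 ± 0.0101 for the Wnt4 class and 1.102 ± 0.0298 for the Lhx1 class. These sums are given as a description with no test. A median cell of the Six2 class held 1.674%, 1.098% and 1.479% of its UMIs in the members, with quartiles of 1.534% and 1.821% in library 1.

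**Figure D1:**
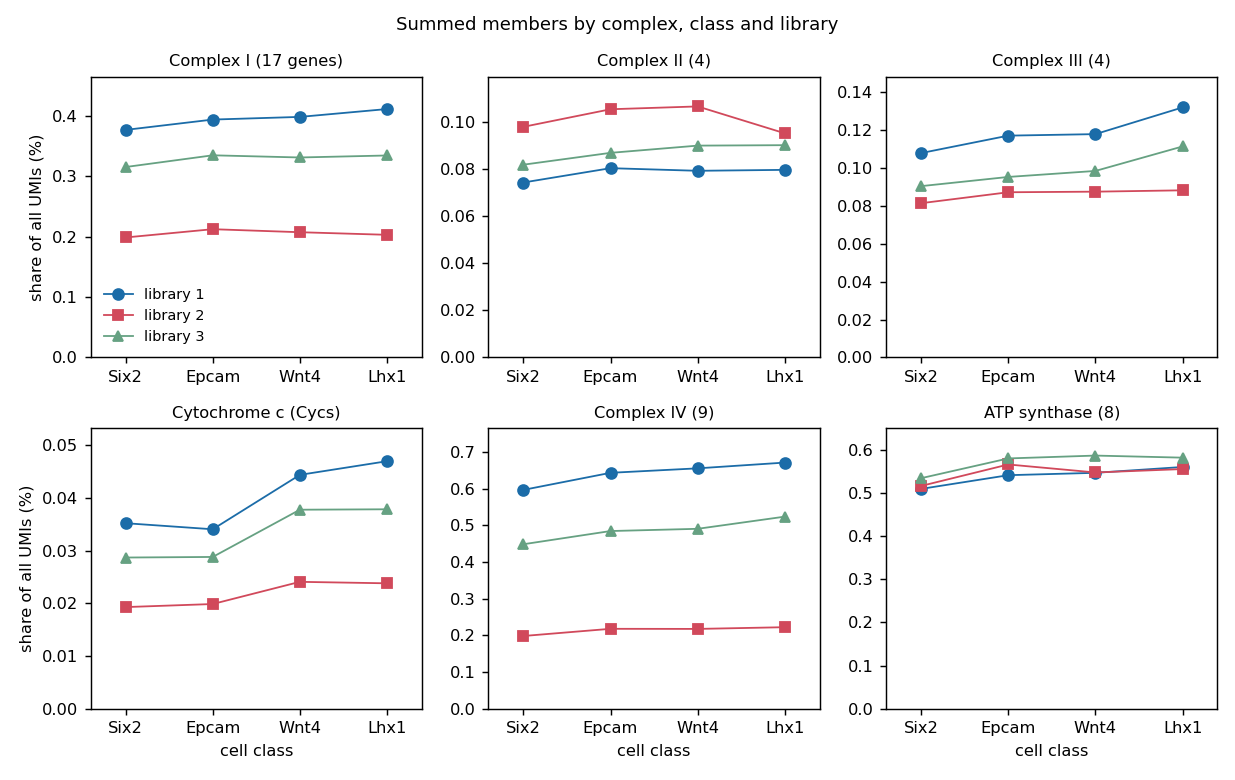
Share of all UMIs (%, vertical axis from 0) taken by the members of each complex in the 4 cell classes, with 1 point per library and class and lines joining the classes of 1 library. Complex IV differs most between libraries, from 0.1985% in library 2 to 0.597% in library 1 of the Six2 class, while the class differences within a library are small, and Cycs rises between the Epcam and Wnt4 classes.

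Single genes were tested on UMIs summed per class and library with edgeR's quasi-likelihood test with library as a block, over all 11133 genes with enough counts. A gene was called at a Benjamini-Hochberg adjusted p below 0.05. All 43 members passed the count filter. In the Epcam class 20 of the 43 rose against the Six2 class and 0 fell, where 4.52% of all tested genes rose and 4.56% fell. In the Wnt4 class 18 rose and 0 fell, against 6.73% and 6.33% of all tested genes. In the Lhx1 class 11 rose and 0 fell, against 4.24% and 2.44%. The members were chosen with earlier results of these data known, so setting them beside all genes is a description and no test of the set. The median log2 change over the 43 was 0.10, 0.11 and 0.16 in these comparisons, beside -0.004, -0.009 and -0.015 over all tested genes, and 43, 38 and 35 members had values above 0. The changes were small: called members rose by 7.13% to 16.9% in the Epcam class, by 8.87% to 27.6% in the Wnt4 class and by 11.8% to 30.6% in the Lhx1 class. They were higher in 3 of 3 libraries for 20 of 20, 17 of 18 and 10 of 11 of these genes. The exceptions were Atp5g3 in the Wnt4 class and Ndufa5 in the Lhx1 class, each higher in 2 of 3. Without library 1 the calls were 6, 8 and 1, and without library 3 they were 10, 13 and 4. A fit that left out the library block called 0 members in each comparison, with 0, 1 and 0 at an unadjusted p below 0.05.

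The comparisons share the Six2 class, so the lists of called genes are not independent. The Epcam and Wnt4 lists had 11 members in common (11 of 20 and 11 of 18). The 11 of the Lhx1 class were all among the 18 of the Wnt4 class, 7 members were called in all 3 comparisons, and 15 were called in none of the 5 comparisons made. The tubes hold mixed litters. With library as a block, differences between tubes are taken out. The p-values reflect nothing but the spread that remains among the class sums of 3 tubes, which may be technical.

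**Figure D2:**
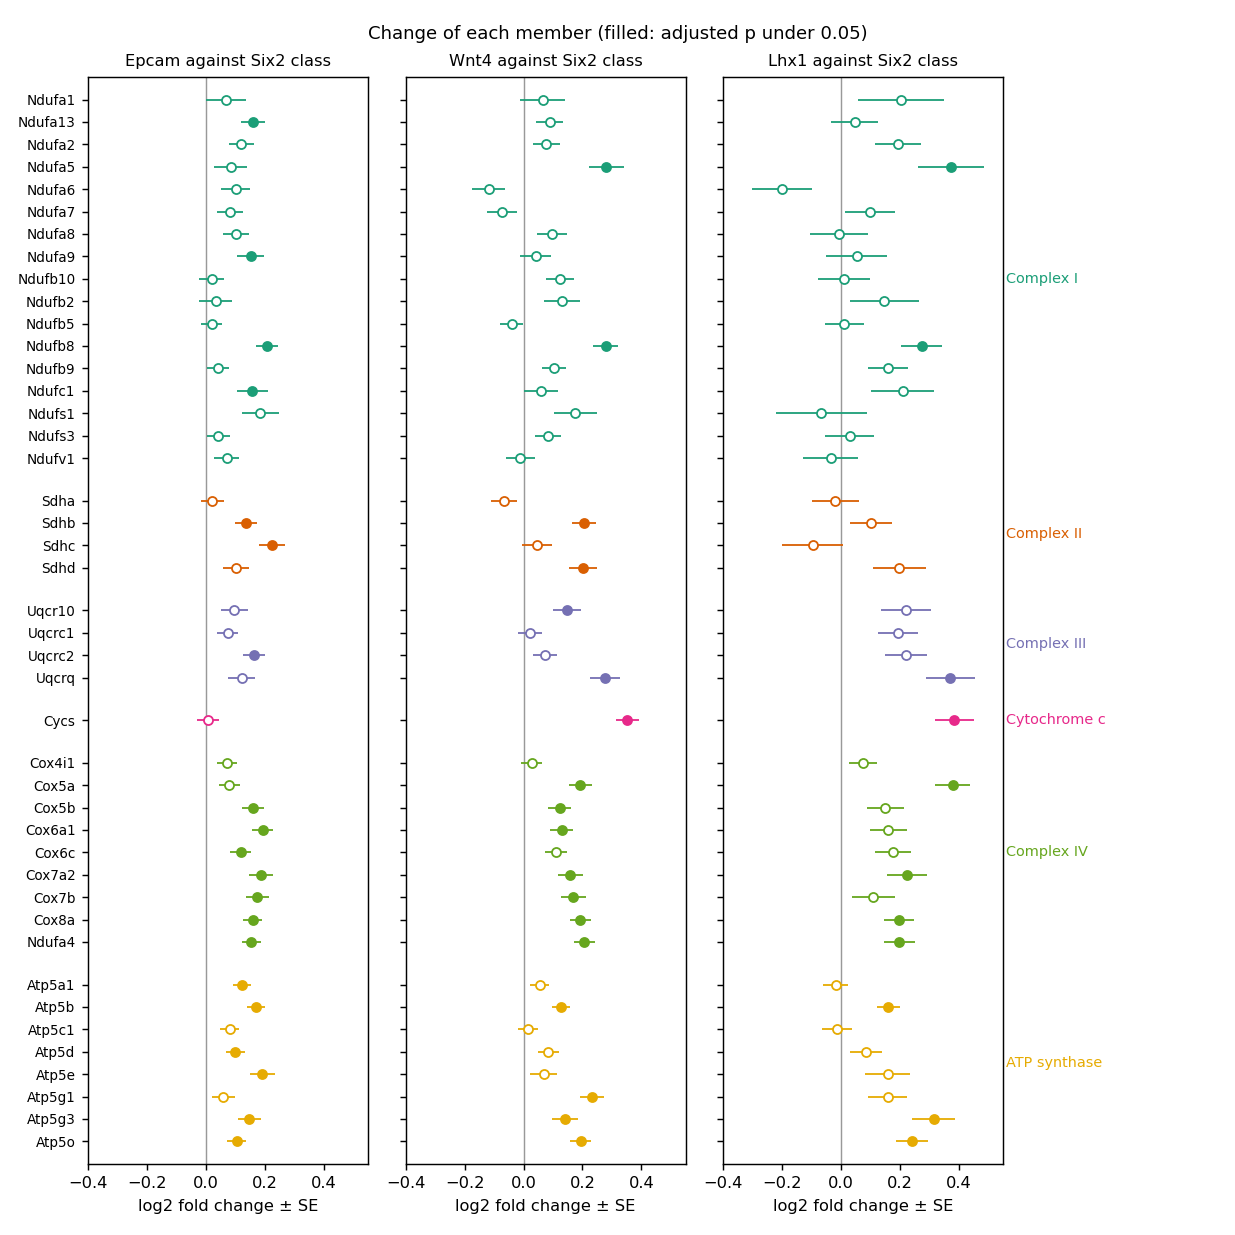
Log2 fold change with its standard error (horizontal axis) of each of the 43 members, by complex, in the Epcam, Wnt4 and Lhx1 classes against the Six2 class, with filled points for an adjusted p below 0.05 in edgeR. Filled points lie to the right of 0 in every panel, 20, 18 and 11 of them.

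In complex I few members were called: 4 of 17 rose in the Epcam class, 2 in the Wnt4 class and 2 in the Lhx1 class. Ndufb8, an accessory subunit of the membrane arm (chromosome 19, 44548572 to 44555440, minus strand, GRCm38), rose in all 3 comparisons. Its level in libraries 1, 2 and 3 was 329, 154 and 334 CPM in the Six2 class, 374, 186 and 370 in the Epcam class, 396, 181 and 413 in the Wnt4 class and 392, 166 and 441 in the Lhx1 class. Each class was above the Six2 class of its own library, while library 2 was far below the other libraries throughout. Its reads share a locus on the same strand with Gm20538, which had 2 UMIs against 30467. The log2 change against the Six2 class was 0.21 ± 0.04 (SE, adjusted p = 0.000161) in the Epcam class, 0.28 ± 0.04 (adjusted p = 3.1e-06) in the Wnt4 class and 0.27 ± 0.07 (adjusted p = 0.00916) in the Lhx1 class.

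Ndufa5, an accessory subunit of the matrix arm of complex I (chromosome 6, 24518666 to 24528013, minus strand), stood at 159, 35.6 and 90.6 CPM in the Six2 class of libraries 1, 2 and 3. It was at 165, 41.1 and 94.0 CPM in the Epcam class, 201, 39.0 and 105 in the Wnt4 class and 228, 26.7 and 104 in the Lhx1 class. Library 2 went the other way in the Lhx1 class. The log2 change was 0.28 ± 0.06 in the Wnt4 class (adjusted p = 0.000762) and 0.37 ± 0.11 in the Lhx1 class (adjusted p = 0.0314), and 0.08 ± 0.06 in the Epcam class, which was not called (adjusted p = 0.424). Ndufb5, the complex I member of the highest mean level, showed no called change: it was at 374, 265 and 399.9 CPM in the Six2 class, 373, 271 and 398 in the Epcam class, 381, 252 and 371 in the Wnt4 class and 369, 257 and 439 in the Lhx1 class (Wnt4 class log2 change -0.04 ± 0.04, adjusted p = 0.587). Among the other complex I members, Ndufa9, Ndufa13 and Ndufc1 rose in the Epcam class by log2 values of 0.15 to 0.16, and uncalled values reached from -0.12 to 0.18 in the Wnt4 class.

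Complex II is the succinate dehydrogenase, with Sdha and Sdhb in the matrix and Sdhc and Sdhd as membrane anchors. Sdhb, the iron-sulfur subunit (chromosome 4, 140961203 to 140979193, plus strand), was at 271, 334 and 296 CPM in the Six2 class, 290, 374 and 319 in the Epcam class, 308, 372 and 360 in the Wnt4 class and 315, 326 and 313 in the Lhx1 class of libraries 1, 2 and 3. It rose in the Epcam class (log2 change 0.14 ± 0.04, adjusted p = 0.0134) and in the Wnt4 class (0.21 ± 0.04, adjusted p = 0.000315), in 3 of 3 libraries each. In the Lhx1 class its change was 0.10 ± 0.07 (adjusted p = 0.507). Sdhd (chromosome 9, 50596357 to 50603812, minus strand) was at 156, 216 and 161 CPM in the Six2 class, 181.7, 218 and 163 in the Epcam class, 181.8, 245 and 186 in the Wnt4 class and 185, 229.96 and 198 in the Lhx1 class. In the Wnt4 class this was a log2 change of 0.20 ± 0.05 (adjusted p = 0.00274). In the Six2 class the 4 complex II genes were highest in library 2, unlike most members.

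Sdhc (chromosome 1, 171127165 to 171150603, minus strand) followed another course. Its level was 132, 163 and 140 CPM in the Six2 class, 148, 195 and 161 in the Epcam class, 134, 179 and 140.5 in the Wnt4 class and 119, 134 and 159 in the Lhx1 class. It rose from the Six2 to the Epcam class in every library (log2 change 0.22 ± 0.04, adjusted p = 0.000391) and was lower in the Wnt4 class than in the Epcam class in every library (-0.18 ± 0.06, adjusted p = 0.0378). Sdha, the flavoprotein subunit that binds succinate, had log2 changes of 0.02, -0.07 and -0.02 in the Epcam, Wnt4 and Lhx1 classes, none of them called.

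In complex III, Uqcrq, a small subunit (chromosome 11, 53427922 to 53430831, minus strand), had the largest change. Its level was 299.8, 66.9 and 179 CPM in the Six2 class, 326, 81.4 and 179 in the Epcam class, 355, 80.1 and 226 in the Wnt4 class and 384, 69.5 and 258 in the Lhx1 class. The Wnt4 and Lhx1 classes were above the Six2 class in every library. The log2 change was 0.28 ± 0.05 (adjusted p = 7.06e-05) in the Wnt4 class and 0.37 ± 0.09 (adjusted p = 0.00279) in the Lhx1 class. Uqcr10, another small subunit (chromosome 11, 4701973 to 4704342, minus strand), was at 289, 61.7 and 157 CPM in the Six2 class, 313, 67.3 and 158 in the Epcam class, 318, 64.8 and 183 in the Wnt4 class and 355, 56.2 and 176 in the Lhx1 class (Wnt4 class log2 change 0.15 ± 0.05, adjusted p = 0.0349). Uqcrc1, a core subunit and the complex III member of the highest mean level, was at 255, 361 and 298 CPM in the Six2 class and 313, 396 and 330 in the Lhx1 class, which did not pass the test (0.19 ± 0.07, adjusted p = 0.0818). Uqcrc2, its partner in the core, rose in the Epcam class (0.16 ± 0.04, adjusted p = 0.00232), and its value of 0.22 ± 0.07 in the Lhx1 class did not pass (adjusted p = 0.0507).

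Cycs had the largest change of any member in the Wnt4 and Lhx1 classes. It encodes cytochrome c, the mobile carrier between complexes III and IV that also triggers caspases when it leaves the mitochondrion, and lies on chromosome 6 (50562563 to 50566538, minus strand). Its level was 352, 193 and 287 CPM in the Six2 class and 340.5, 199 and 288 in the Epcam class of libraries 1, 2 and 3. In the Wnt4 class it was 444, 241 and 378 CPM, and in the Lhx1 class 469.6, 238 and 378. The Six2 and Epcam classes thus lay together, and the Wnt4 and Lhx1 classes lay above both in every library. Against the Six2 class the log2 change was 0.01 ± 0.04 in the Epcam class (adjusted p = 0.996), 0.35 ± 0.04 in the Wnt4 class (adjusted p = 7.98e-09) and 0.39 ± 0.07 in the Lhx1 class (adjusted p = 5.22e-05). Between the Wnt4 and Epcam classes, tested directly, it was 0.34 ± 0.05 (adjusted p = 2.45e-07). Cycs has many processed pseudogenes, as several members do, and the sources used here do not say how the authors' counting assigned reads that match such copies.

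**Figure D3:**
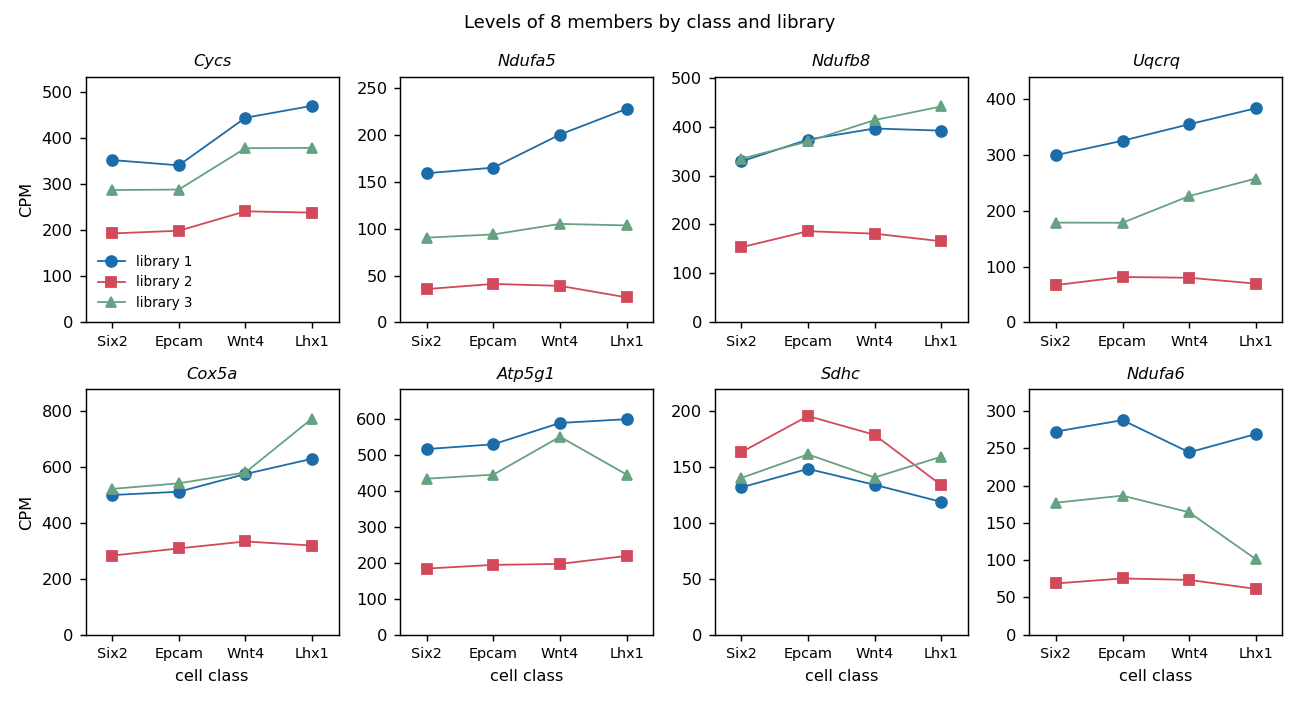
Level in CPM (vertical axis from 0) of 8 members in the 4 classes, with 1 point per library and class and lines joining the classes of 1 library. Cycs is flat between the Six2 and Epcam classes and higher in the Wnt4 and Lhx1 classes of all 3 libraries, while Sdhc peaks in the Epcam class and library 2 is lowest for every gene shown but Sdhc.

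Complex IV, cytochrome c oxidase, had 7 of 9 members that rose in the Epcam class, 7 in the Wnt4 class and 4 in the Lhx1 class, and its 9 values were above 0 in each. Ndufa4, named for complex I but a subunit of complex IV (chromosome 6, 11900292 to 11907497, minus strand), was at 811, 194 and 554 CPM in the Six2 class, 885, 214 and 616 in the Epcam class, 914, 234 and 651 in the Wnt4 class and 913, 222 and 670.1 in the Lhx1 class. Its log2 changes of 0.15 ± 0.03, 0.21 ± 0.03 and 0.20 ± 0.05 were all called (adjusted p = 0.00124, 3.67e-05 and 0.0126). Cox8a, a small membrane subunit (chromosome 19, 7215153 to 7217616, minus strand), was at 938, 207 and 579.9 CPM in the Six2 class, 1039.8, 235 and 628 in the Epcam class, 1064, 233 and 676 in the Wnt4 class and 1086, 214 and 689 in the Lhx1 class. It too rose in all 3 comparisons, by log2 values of 0.16 ± 0.03, 0.19 ± 0.04 and 0.20 ± 0.05 (adjusted p = 0.000852, 0.000107 and 0.0109).

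Cox5a, a subunit on the matrix side (chromosome 9, 57521274 to 57532426, plus strand), was the complex IV member with the largest change in the Lhx1 class. Its level was 499, 282 and 520.3 CPM in the Six2 class, 510.1, 308 and 540.2 in the Epcam class, 573, 333 and 579 in the Wnt4 class and 628, 318 and 771 in the Lhx1 class. Library 3 moved most in the Lhx1 class. The log2 change was 0.08 ± 0.04 in the Epcam class (adjusted p = 0.195), 0.19 ± 0.04 in the Wnt4 class (adjusted p = 0.000467) and 0.38 ± 0.06 in the Lhx1 class (adjusted p = 1.53e-05). Cox7a2 (chromosome 9, 79755361 to 79759878, minus strand) and Cox7b (chromosome X, 106015700 to 106022450, plus strand) are small membrane subunits. Cox7a2 was at 506, 112 and 299 CPM in the Six2 class, 551, 135 and 339 in the Epcam class, 565, 136 and 320.5 in the Wnt4 class and 574, 112 and 395 in the Lhx1 class (log2 change 0.22 ± 0.07, adjusted p = 0.0379). Cox7b was at 384, 96.2 and 243 CPM in the Six2 class, 432, 110.3 and 265 in the Epcam class, 432, 120.4 and 263 in the Wnt4 class and 423, 107 and 251 in the Lhx1 class (Wnt4 class 0.17 ± 0.04, adjusted p = 0.00448). Cox4i1, the regulatory subunit with the highest level of the complex (1207, 694 and 1247 CPM in the Six2 class; 1244, 685 and 1284 in the Wnt4 class), was called in none of the comparisons.

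Of the 8 ATP synthase members, 6 rose in the Epcam class, 4 in the Wnt4 class and 3 in the Lhx1 class. Atp5b, the catalytic beta subunit (chromosome 10, 128083273 to 128090391, plus strand), was the most abundant of all members, at 1283, 1759.8 and 1509 CPM in the Six2 class of libraries 1, 2 and 3. It was at 1417, 1982 and 1676 CPM in the Epcam class, 1370.1, 1969 and 1655 in the Wnt4 class and 1497, 1877 and 1714 in the Lhx1 class, above the Six2 class in every library. The log2 change was 0.17 ± 0.03 (adjusted p = 0.000121), 0.13 ± 0.03 (adjusted p = 0.00397) and 0.16 ± 0.04 (adjusted p = 0.00655). Atp5o, a stalk subunit (chromosome 16, 91925214 to 91931687, minus strand), was at 527, 395 and 572 CPM in the Six2 class, 553, 438 and 597 in the Epcam class, 596, 446 and 668 in the Wnt4 class and 613, 505 and 668 in the Lhx1 class. Its changes of 0.10 ± 0.03, 0.19 ± 0.04 and 0.24 ± 0.05 on the log2 scale were called in all 3 comparisons (adjusted p = 0.0404, 9.45e-05 and 0.00255).

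Atp5g1 and Atp5g3 encode the same mature c subunit of the proton-carrying ring behind different import sequences. Atp5g1 (chromosome 11, 96068852 to 96075670, minus strand) was at 517, 184 and 434 CPM in the Six2 class, 530.3, 194 and 446 in the Epcam class, 589.6, 197 and 551 in the Wnt4 class and 600.1, 219 and 446 in the Lhx1 class. It rose in the Wnt4 class against both the Six2 class (log2 change 0.23 ± 0.04, adjusted p = 7e-05) and the Epcam class (0.17 ± 0.05, adjusted p = 0.00758). Atp5g3 (chromosome 2, 73908447 to 73911326, minus strand) was at 321, 185 and 337 CPM in the Six2 class, 347, 205 and 374 in the Epcam class, 353, 175 and 402 in the Wnt4 class and 419, 206 and 422 in the Lhx1 class. It rose in all 3 classes against the Six2 class, by log2 values of 0.15 ± 0.04 (adjusted p = 0.0127), 0.14 ± 0.04 (adjusted p = 0.0273) and 0.31 ± 0.07 (adjusted p = 0.00326). Whether the 2 genes differ in their change was not tested.

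Between the Wnt4 and Epcam classes, 2 members rose and 2 fell, where 7.26% and 6.44% of all tested genes did, and the median log2 change of the 43 was -0.01. Cycs and Atp5g1 were higher and Sdhc was lower in the Wnt4 class, as given above. Ndufa6, a complex I subunit (chromosome 15, 82350140 to 82354322, minus strand), was at 288, 75.4 and 186 CPM in the Epcam class and 245, 73.4 and 164 in the Wnt4 class, lower in 3 of 3 libraries (log2 change -0.22 ± 0.06, adjusted p = 0.0151). The 4 calls became 1 without library 1, 7 without library 2 and 1 without library 3. It was at 272, 68.7 and 177 CPM in the Six2 class and 269, 61.5 and 101 in the Lhx1 class, and against the Six2 class its values of -0.12 and -0.20 in the Wnt4 and Lhx1 classes were not called. Between the Lhx1 and Wnt4 classes 0 of 43 members were called by edgeR or DESeq2, where edgeR called 1.68% of all tested genes in either direction. At an unadjusted p below 0.05 edgeR gave 3 members and DESeq2 gave 4, and without library 2 edgeR called 1.

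Promoter sequences are shown for Cycs, whose change was the largest, and for 3 further members that carry the same motif: Sdhb, Cox6a1 and Ndufa6. Sdhb and Cox6a1 rose in the Epcam and Wnt4 classes against the Six2 class, and Ndufa6 was lower in the Wnt4 than in the Epcam class. They run 5′ to 3′ along the gene from 250 bases before to 50 bases after the RefSeq start (GRCm38.p6), at chr6:50566520-50566819 (minus strand), chr4:140961021-140961320 (plus), chr5:115348909-115349208 (minus) and chr15:82354242-82354541 (minus). Capitals mark matches on either strand to the core of the NRF1 motif (GCATGCGC; NRF1 is a transcription factor known for binding promoters of respiratory genes) and to an ETS or GABP core (CCGGAAG).
Cycs: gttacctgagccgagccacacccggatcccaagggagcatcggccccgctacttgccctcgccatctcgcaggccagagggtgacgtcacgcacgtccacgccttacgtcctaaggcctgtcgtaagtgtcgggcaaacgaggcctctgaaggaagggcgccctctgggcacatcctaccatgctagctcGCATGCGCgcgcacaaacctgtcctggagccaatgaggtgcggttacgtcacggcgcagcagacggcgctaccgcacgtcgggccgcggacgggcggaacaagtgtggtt
Sdhb: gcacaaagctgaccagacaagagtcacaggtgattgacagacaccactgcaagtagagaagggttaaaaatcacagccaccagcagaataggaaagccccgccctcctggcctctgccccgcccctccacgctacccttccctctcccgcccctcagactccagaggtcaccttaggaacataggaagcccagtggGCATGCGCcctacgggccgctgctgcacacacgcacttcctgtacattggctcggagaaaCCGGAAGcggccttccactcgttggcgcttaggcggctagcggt
Cox6a1: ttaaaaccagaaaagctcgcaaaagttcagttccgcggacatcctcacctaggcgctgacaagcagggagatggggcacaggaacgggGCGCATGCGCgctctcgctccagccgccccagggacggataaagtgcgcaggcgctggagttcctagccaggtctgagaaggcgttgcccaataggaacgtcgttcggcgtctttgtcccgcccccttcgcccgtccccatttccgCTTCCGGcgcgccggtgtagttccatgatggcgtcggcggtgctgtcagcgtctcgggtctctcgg
Ndufa6: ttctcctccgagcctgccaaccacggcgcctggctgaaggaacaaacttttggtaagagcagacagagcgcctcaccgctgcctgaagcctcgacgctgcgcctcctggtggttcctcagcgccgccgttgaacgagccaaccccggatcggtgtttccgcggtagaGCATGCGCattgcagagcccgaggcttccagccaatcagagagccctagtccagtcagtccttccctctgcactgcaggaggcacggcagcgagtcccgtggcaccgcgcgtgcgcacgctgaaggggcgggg

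The NRF1 core lay at -60 to -53 in Cycs, -54 to -47 in Sdhb and -83 to -76 in Ndufa6, counted from the start with the first base of the gene as 1. In Cox6a1 the capitals at -162 to -153 are 2 matches on opposite strands that overlap. The ETS core lay at 7 to 13 in Sdhb and at -16 to -10 in Cox6a1. RefSeq windows were found for 34 of the 43 members (38 windows of 300 bases). The NRF1 core was in 6 of the 38 (15.8%), beside 2.71% of all 32851 windows. The further genes with it were Ndufa8 and Uqcrc1, which were called in no comparison. The ETS core was in 6 (15.8%, beside 8.86% of all windows), the YY1 motif AAGATGG in 3 (7.89%, beside 6.34%) and the estrogen-related receptor motif TCAAGGTCA in 2 (5.26%, beside 0.423%), Atp5g3 and Sdhd. These matches are letters in a sequence and were not tested against the changes.

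Differences between the libraries were far larger than those between classes for complexes I and IV, but not for ATP synthase. Library differences thus split the members. In the Six2 class the complex IV members took 0.597%, 0.1985% and 0.449% of UMIs in libraries 1, 2 and 3, with 95% Wilson intervals of 0.5943% to 0.5995%, 0.1968% to 0.2002% and 0.4461% to 0.4513% that cover counting error only. The ATP synthase members took 0.509%, 0.516% and 0.534%, and the complex II members 0.0743%, 0.0979% and 0.0819%. Complex IV was therefore lower in library 2 than in library 1 by a ratio of 0.333, where ATP synthase had a ratio of 1.01 and complex II a ratio of 1.32. The median ratio over the 43 members was 0.548, against 1.31 over 10788 tested genes with a transcript length. Of the 43 members 29 were lower in library 2, as were 1317 of the 10788 genes.

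The split followed transcript length. Of the 23 members whose principal transcript is shorter than 1000 bases, all 23 were lower in library 2 than in library 1, with a median ratio of 0.242 and a range of 0.196 (Atp5e, 421 bases) to 0.920 (Ndufa8, 861 bases). Of the 20 longer ones 14 were higher, up to 1.46 for Ndufa9 (1445 bases), and 6 were lower: Cox7b, Ndufb5, Ndufa13, Ndufb2, Atp5g1 and Cycs. The split at 1000 bases was chosen after seeing the values, and it was not applied to all tested genes. Over the 43 members Pearson's r between log2 ratio and log2 length was 0.627 and Spearman's rho 0.679, a description across genes that share 2 libraries. Over the 10788 genes the same values were 0.327 and 0.0577. Library 3 against library 1 showed a smaller difference of the same kind, with ratios from 0.478 (Atp5e) to 1.20 (Sdha) and r of 0.532. The classes were compared inside each library. The cause of the pattern was not tested.

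**Figure D4:**
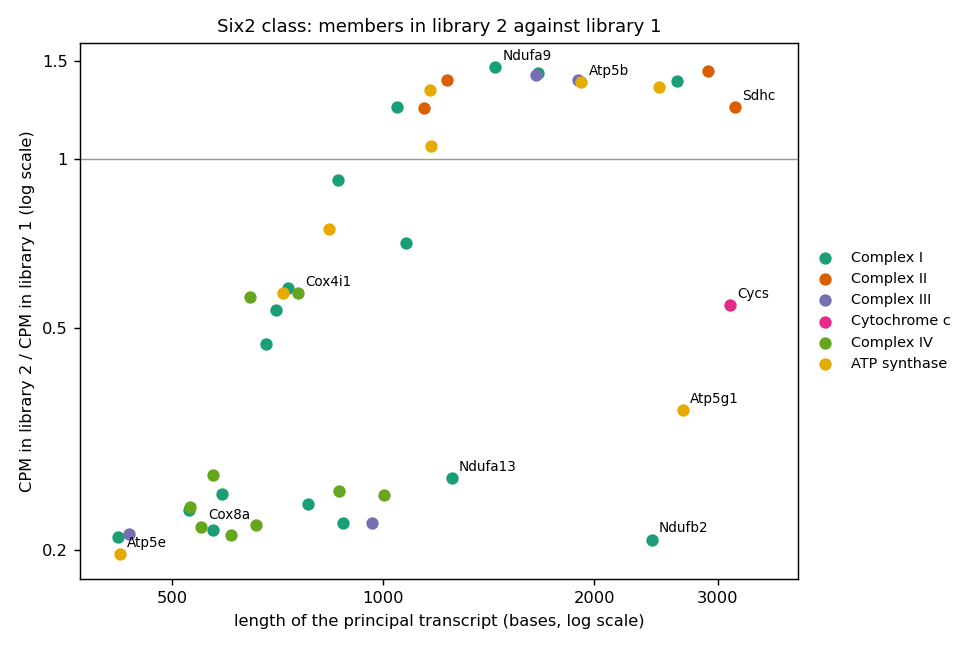
Ratio of CPM in library 2 to CPM in library 1 in the Six2 class (vertical axis, log scale) against the length of the principal transcript (bases, log scale) for the 43 members, coloured by complex, with a line at a ratio of 1. The 23 members under 1000 bases all lie below 1, most of them between 0.196 and 0.272, and most longer members lie above it, with Cycs, Atp5g1, Ndufa13 and Ndufb2 as labelled exceptions.

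Over all tested genes 4.52%, 6.73% and 4.24% rose in the Epcam, Wnt4 and Lhx1 classes against the Six2 class. The shares that fell were 4.56%, 6.33% and 2.44%. Of 36 other nuclear subunits, 12, 8 and 4 rose in these classes, with medians of 0.09, 0.06 and 0.10 (log2), and 0, 1 and 1 fell. The gene that fell was Cox7a2l, which helps to join complexes III and IV into supercomplexes: it went from 630.4 ± 92.6 CPM (SD, n = 3) in the Six2 class to 517 ± 85.1 in the Wnt4 class (log2 change -0.29 ± 0.04, adjusted p = 4.36e-07) and 527 ± 134 in the Lhx1 class (-0.28 ± 0.06, adjusted p = 0.00155). Ndufa12, a complex I subunit, rose most in the Lhx1 class, from 254 ± 115 to 346 ± 163 CPM (0.41 ± 0.07, adjusted p = 9.72e-05). Ndufb4 rose most in the Wnt4 class, by a log2 value of 0.30.

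The 13 subunits encoded by mitochondrial DNA took 3.31%, 3.44% and 3.29% of UMIs in the Six2 class of libraries 1, 2 and 3. In the Lhx1 class they took 3.25%, 4.02% and 3.13%, so library 2 stood above the others there. Their ratio to the Six2 class was 0.982 ± 0.00647 (SD, n = 3) in the Epcam class, 0.978 ± 0.0117 in the Wnt4 class and 1.03 ± 0.119 in the Lhx1 class. The 1 gene called in any comparison against the Six2 class was mt-Nd1, a core subunit of complex I, which rose by a log2 value of 0.16 ± 0.04 (adjusted p = 0.0124) in the Lhx1 class. Of all tested genes 4.24% rose in that class. The difference between nuclear and mitochondrial subunits was not tested.

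Factors that assemble the complexes (44 genes) had 2 higher and 1 lower in the Epcam class, 1 and 1 in the Wnt4 class and 3 and 0 in the Lhx1 class. For the counts in this paragraph, the shares of all tested genes that rose were 4.52%, 6.73% and 4.24% in these classes. The shares that fell were 4.56%, 6.33% and 2.44%. Uqcc2, an assembly factor of complex III, rose in the Epcam class (0.23 ± 0.06, adjusted p = 0.00324) and the Lhx1 class (0.44 ± 0.11, adjusted p = 0.0104). Of 20 genes of mitochondrial import and protein folding, 7 rose and 0 fell in the Wnt4 class, where 1 rose and 2 fell in the Epcam class. The intermembrane chaperones Timm9 and Timm10 were the 2 that fell in the Epcam class (-0.29 ± 0.07 and -0.22 ± 0.07, adjusted p = 0.00236 and 0.0312) and had the largest rises in the Wnt4 class (0.31 ± 0.07 and 0.24 ± 0.07, adjusted p = 0.00125 and 0.0162). Mitochondrial ribosomal proteins had 4, 11 and 2 of 76 tested genes higher and 1, 0 and 0 lower, and Mrpl12 rose in the Wnt4 class by 0.27 ± 0.05 (adjusted p = 2.68e-05).

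Fuel supply was mixed. Of 14 citric acid cycle genes, 3, 2 and 0 rose and 1, 0 and 0 fell. Beside this and the next counts, 4.52%, 6.73% and 4.24% of all tested genes rose and 4.56%, 6.33% and 2.44% fell. Idh3a, the catalytic subunit of NAD-dependent isocitrate dehydrogenase, rose in the Wnt4 class (0.22 ± 0.06, adjusted p = 0.00777) and Idh2 fell in the Epcam class (-0.12 ± 0.03, adjusted p = 0.0188). In the Lhx1 class both subunits of the mitochondrial pyruvate carrier rose: Mpc1 from 107 ± 11.2 to 145 ± 29.6 CPM (0.41 ± 0.10, adjusted p = 0.00859) and Mpc2 from 69.4 ± 11.5 to 101 ± 49.8 (0.67 ± 0.14, adjusted p = 0.00116). Pdk1, the kinase that shuts off pyruvate dehydrogenase, fell from 20.2 ± 3.42 to 9.68 ± 8.30 CPM there (-1.12 ± 0.36, adjusted p = 0.0477) and to 14.1 ± 2.47 in the Epcam class (-0.49 ± 0.13, adjusted p = 0.007). Those 3 genes were the only called ones of the 10 tested for pyruvate entry in the Lhx1 class. Of 18 tested glycolytic genes, 1, 3 and 1 rose and 0, 3 and 0 fell. Ldhb, a lactate dehydrogenase subunit, rose in all 3 classes (0.33 ± 0.04, 0.26 ± 0.04 and 0.44 ± 0.08, adjusted p = 2.5e-08, 2.68e-05 and 8.17e-05), and Hk1, which starts glycolysis, fell in the Wnt4 class from 31.3 ± 6.37 to 19.6 ± 6.003 CPM (-0.70 ± 0.12, adjusted p = 3.13e-05).

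Among 9 carriers and channels, Slc25a5, an ATP and ADP exchanger, rose in the Wnt4 class (0.19 ± 0.03, adjusted p = 8.41e-05) and the Lhx1 class (0.24 ± 0.05, adjusted p = 0.000295). Its relative Slc25a4 fell in the Lhx1 class, from 1506 ± 239.99 to 1299.8 ± 176 CPM (-0.22 ± 0.04, adjusted p = 0.000237). Of 16 regulators of mitochondrial biogenesis, the coactivator Ppargc1b rose in the Wnt4 class, from 6.59 ± 1.06 to 12.3 ± 3.61 CPM (0.82 ± 0.21, adjusted p = 0.00527), and Gabpb1 rose in the Lhx1 class (0.62 ± 0.17, adjusted p = 0.0166). The other 14 were called in none of the 3 comparisons against the Six2 class. As 6.73% and 4.24% of all tested genes rose in the Wnt4 and Lhx1 classes, 1 of 16 in each is near those shares. The shares that fell were 6.33% and 2.44%. Only 2 of 9 isoforms typical of muscle, testis or other tissues passed the count filter, and neither was called.

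Cell cycle genes differed between the classes. In the Epcam class 20 of 20 S phase genes fell and 15 of 20 genes of G2 and M phase rose against the Six2 class, with 1 lower. In the Wnt4 class 5 and 18 rose and 0 fell. In the Lhx1 class 1 and 11 rose, and 1 S phase gene fell (Mcm6, log2 change -0.36, adjusted p = 0.00199). Beside these counts, 4.52%, 6.73% and 4.24% of all tested genes rose in the 3 classes and 4.56%, 6.33% and 2.44% fell. With 1 of 20 each way, the S phase counts of the Lhx1 class lay near these shares. The S phase genes summed to 0.316% to 0.403% of UMIs in the Six2 class, 0.210% to 0.290% in the Epcam class, 0.317% to 0.436% in the Wnt4 class and 0.274% to 0.422% in the Lhx1 class. The genes of G2 and M phase summed to 0.293% to 0.339%, 0.397% to 0.439%, 0.382% to 0.464% and 0.273% to 0.534%. With only cells that had no UMI of the cycle genes Mki67, Top2a and Cdk1, the median log2 change of the members was 0.16 in the Epcam class, 0.13 in the Wnt4 class and -0.05 in the Lhx1 class, and edgeR called 3, 8 and 0 (2 of the last at an unadjusted p below 0.05). That left 88 and 14 cells in the Wnt4 and Lhx1 classes, and 1.98%, 1.88% and 0.213% of all tested genes were called in either direction. Within the Six2 class the members made up 1.705% of UMIs in cells with those genes and 1.687% in cells without them in library 1, 1.117% and 1.101% in library 2 and 1.510% and 1.474% in library 3.

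Depth and other cell types also moved with the classes. The median Wnt4-class cell had 20098, 14039 and 19669.5 UMIs in libraries 1, 2 and 3, against 16088, 12075 and 15811 in the Six2 class. In the Lhx1 class the medians were 22667, 11734 and 21684, above the Six2 class in libraries 1 and 3 and below it in library 2. The Epcam class had 16556, 12651 and 16216. With every cell thinned to 5000 UMIs, 15, 12 and 0 members were called in the Epcam, Wnt4 and Lhx1 classes, with medians of 0.14, 0.14 and 0.09, where 6.27%, 6.63% and 1.43% of all tested genes were called in either direction (9.08%, 13.1% and 6.68% with whole cells). Of the 8 ureteric markers, all 3 that could be tested rose in the Lhx1 class, where the list summed to 0.00897%, 0.0337% and 0.0178% of UMIs against 0.00556%, 0.00742% and 0.00571% in the Six2 class, with Upk3a and Aqp2 at 0. In the Epcam class 2 of the 3 rose, and the list summed to 0.00477%, 0.00933% and 0.00637%. In the Wnt4 class 0 rose and 1 fell. Immune markers reached 0.00536% in the Wnt4 class of library 2, against 0.000135% in the Six2 class of that library. With cells that held 2 or more UMIs of other cell types' markers left out, 16, 21 and 0 members were called, with medians of 0.12, 0.17 and 0.10, and the Lhx1 class kept 26 of its 79 cells. In that fit 7.05%, 12.6% and 0.555% of all tested genes were called. The Lhx1-class median of 0.10 compares with 0.16 over all kept cells, and 34 members against 35 had values above 0. Why the calls in the Lhx1 class were lost was not tested. Immediate early genes respond to dissociation. Of 13 tested, 8, 10 and 7 were lower and 0, 1 and 0 higher in the 3 classes. The part of these genes in the result was not tested. Beside these and the ureteric counts, 4.56%, 6.33% and 2.44% of all tested genes fell and 4.52%, 6.73% and 4.24% rose. The 0 calls in the Lhx1 class came with 2 members at an unadjusted edgeR p below 0.05 for thinning and 6 without other cell types' markers.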

How the data were processed

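The deposited values were whole-number UMI counts per gene and cell, made with Cell Ranger 1.3.1 on mm10, per the submitters' processing notes; the counting settings are not given in the sources used here. The labels do not say which tube has which barcode suffix, so libraries are numbered by suffix. The members, gene lists and alternatives were chosen with earlier results of these data known. Of 7924 barcodes, 7898 had at least 1000 genes and at most 10% mitochondrial UMIs. Scrublet, run in scanpy 1.11.5, called 23 (0.291%), too few for the caller to have worked, so doublets are taken as still present, and 2 cells rich in hemoglobin were removed. Counts were summed per class and library and tested in edgeR 4.0.16 (R 4.3.3; TMM, filterByExpr, library as a block, since classes of 1 library share a tube). Standard errors are the log2 change divided by the square root of F. The fit was tested on simulated data. DESeq2 1.42.0 was an alternative. Positions and transcript lengths came from the GRCm38 annotation. Named members were those with the largest called changes per complex in the Wnt4 and Lhx1 classes, the highest member of each complex and any called lower, and other lists' examples came from their largest called changes.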

Additional observations from a re-analysis of the deposited data

How the results depend on the processing

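Of 17 alternatives, the fit with no replicate block gave 0 called members in each of the 4 comparisons that had calls, so the calls rest on comparing classes within a library. Leaving out 1 library at a time gave 6 to 20 calls for the Epcam class against the Six2 class, 8 to 21 for the Wnt4 class, 1 to 14 for the Lhx1 class, 1 to 7 for the Wnt4 against the Epcam class and 0 to 1 for the Lhx1 against the Wnt4 class. With at least 2 UMIs for a class, 11 and 7 were called for the Epcam and Lhx1 classes. Leaving out cells with Mki67, Top2a or Cdk1 gave 3, 8 and 0 calls against the Six2 class and 0 between the Wnt4 and Epcam classes. For the Lhx1 class, no low count filter gave 6, and thinning, cells of 10000 to 20000 UMIs and leaving out other cell types' markers gave 0 each, in fits that called 1.43%, 0.404% and 0.555% of all tested genes against 6.68% in the main fit. The median log2 change of the members there was 0.09, 0.06 and 0.10, against 0.16 in the main fit. Between the Wnt4 and Epcam classes, DESeq2, thinning and cells of 10000 to 20000 UMIs gave 1 each, and no cell filter gave 7. Counting the 33 Lhx1-class cells with Six2 and no Wnt4 or Epcam in the Six2 class gave 8. Directions in the Lhx1 class reversed without cycling cells for Cox5a (-0.043), Cox7a2 (-0.26), Cox8a (-0.027), Ndufa4 (-0.093), Ndufa5 (-0.23), Ndufb8 (-0.12) and Uqcrq (-0.19), and in cells of 10000 to 20000 UMIs for Cox7a2 (-0.015). Those settings left 14 and 41 of the 79 Lhx1-class cells, and the cause was not tested.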
